A study of Homo sapiens with 5 samples.

Results

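The cytosolic chaperonin CCT, also called TRiC, is built from 8 related subunits encoded by *TCP1*, *CCT2*, *CCT3*, *CCT4*, *CCT5*, *CCT6A*, *CCT7*, and *CCT8*. These 8 genes were taken by name from a table of read counts for 27328 Ensembl genes. All 8 were found, and all 8 passed the filter on low counts, which left 14391 genes for testing. The counts come from TF-1, a human AML cell line of erythroid and progenitor character. The control libraries came from 2 pools of cells that carry sgCtrl, an sgRNA against the *Renilla luciferase* gene, which human cells lack. The knockout libraries came from 3 pools, 1 each for sgMTSS1_1, sgMTSS1_2, and sgMTSS1_3, in which CRISPR/Cas9 was directed at *MTSS1*, a gene for a membrane- and actin-binding protein. Every pool, control or knockout, combined 4 single-cell clones that had been selected after transduction, so a replicate is a mixture of 4 clones and each knockout replicate has its own sgRNA. No drug treatment is given for these pools. The question was how mRNA levels differ between *MTSS1* knockout and control pools.

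CCT consists of a pair of stacked rings. Each ring holds 1 copy of every subunit, and each subunit occupies a fixed place. Newly made proteins enter the cavity, and binding and hydrolysis of ATP close a built-in lid over them. Actin and tubulin are its best-known clients, along with proteins that carry WD40 repeats, such as G protein beta chains and activators of the anaphase-promoting complex. Prefoldin delivers unfolded actin and tubulin to the chaperonin, and phosducin-like proteins assist it. The subunits differ in their use of ATP. TCP1, CCT2, CCT4, and CCT5 form the side of the ring that binds ATP more tightly, and CCT3, CCT6A, CCT7, and CCT8 form the other side.

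Total counts ranged from 2849979 to 3408827 in the control and from 5442639 to 8854899 in the knockout libraries, so every knockout library was the deeper. The library totals cannot be told apart from the condition. Levels are given in CPM, counts relative to a library's total over the tested genes, scaled with TMM factors. *MTSS1* mRNA was at 204 and 87.9 CPM in the control and at 104, 139, and 49.9 CPM in the knockout pools. The groups overlapped, so this mRNA does not check the labels. The study selected knockout clones by immunoblot, that is, on the protein. All 9 markers of TF-1 and of erythroid and progenitor cells were detected. Their sum was 716 and 726 CPM in the control and 767, 1029, and 934 CPM in the knockout pools, above both controls in every pool. *CD34*, a progenitor marker, was above both controls in every knockout pool (log2-fold change 0.99, edgeR adjusted p = 0.148), and *GATA1*, an erythroid factor, below both (−0.56, adjusted p = 0.291). *KLF1*, also an erythroid factor, was above both (0.54, edgeR adjusted p = 0.317). Of the 9 markers, 4 lay above both controls in every knockout pool, as did 22.2% of all tested genes. Another 1 lay below both, as did 19.2% of all tested genes, and 4 overlapped. Among epithelial markers, *KRT18* was at 53.5 to 138 CPM and *KRT8* at 11.2 to 25.3 CPM, while *EPCAM* reached at most 0.542 CPM, the 2 fibroblast collagens together at most 0.696 CPM, *CD3D* at most 4.52 CPM, and the 2 B cell genes together at most 11.6 CPM. *CD79A*, one of these, was at 6.25 and 2.38 CPM in control pools and below 1 CPM in each knockout pool (log2-fold change −2.59, edgeR adjusted p = 0.0506). Ribosomal protein genes took between 7.55% and 9.30% of control counts and between 11.9% and 17.7% of knockout counts. Mitochondrially encoded genes took 13.9% and 8.63% of control counts and between 6.71% and 7.44% of knockout counts, so both shares separated the groups. Their part in the differences between subunits was not tested. With both gene groups kept out of the scaling factors, the log2-fold change was 1.21 for *CCT8* and −0.72 for *TCP1*.

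The subunit mRNAs were abundant and unequal. Libraries were made from the 3′ end, by a method meant to give 1 tag for each mRNA molecule. CPM values of different genes are therefore not scaled by length, although genes can differ in how well their ends are captured. Averaged over the 5 libraries, the level was 695 CPM for *CCT8*, 499 CPM for *CCT6A*, 479 CPM for *CCT3*, and 461 CPM for *CCT7*. It was 259 CPM for *CCT5*, 257 CPM for *CCT2*, 114 CPM for *TCP1*, and 45.9 CPM for *CCT4*. *CCT4* lay at the 73.7th percentile of all tested genes by level, *TCP1* at the 88.6th, and the other 6 above the 95th. The levels of *CCT6A*, *CCT3*, and *CCT7* overlapped from pool to pool, as did those of *CCT5* and *CCT2*. The first place of *CCT8* rested on the knockout pools. In control pools, its mean of 389 CPM was below those of *CCT6A* (517 CPM) and *CCT3* (504 CPM), and in knockout pools, its mean of 898 CPM was above that of every other subunit. *TCP1* exceeded *CCT4* in every library. *CCT4* was the lowest of the 8 in all 5 libraries.

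**Figure D1:**
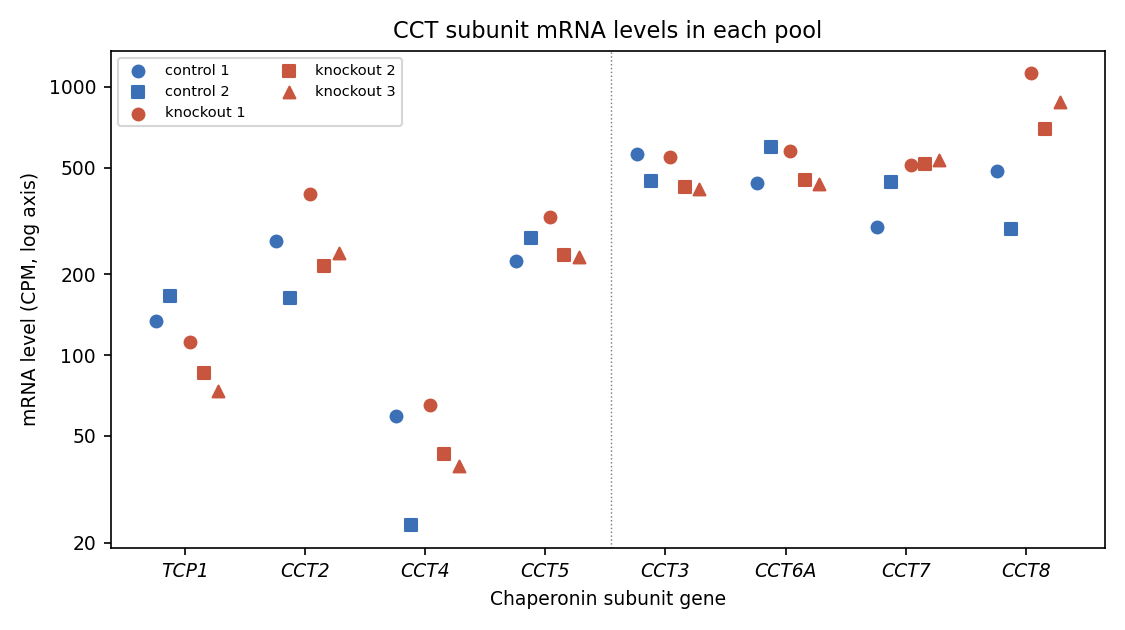
mRNA level of each CCT subunit gene in CPM on a logarithmic axis, with 1 point per library, blue for control and red for knockout pools. Genes left of the dotted line encode the subunits that bind ATP more tightly. The 3 knockout pools lie above both control pools for *CCT8* and *CCT7* and below both for *TCP1*.

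The 4 subunits on the side with weaker ATP binding were the more abundant set in every pool. In control pools 1 and 2, their levels ran from 301 to 563 CPM and from 295 to 595 CPM, against 59.4 to 266 CPM and 23.2 to 273 CPM for the other 4. In the knockout pools, they ran from 510 to 1122 CPM, 421 to 697 CPM, and 417 to 876 CPM, against 65.1 to 397 CPM, 43.0 to 235 CPM, and 38.8 to 240 CPM. The lowest member of the abundant set thus lay above the highest member of the other set in each library. This grouping was made after the values were seen, and it describes levels of mRNA, not of protein.

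In the main test, that of edgeR, no subunit passed the thresholds for differential expression between knockout and control pools. A gene was called at an adjusted p under 0.05 if its log2-fold change was also past 1 in either direction. In the quasi-likelihood test of edgeR, adjusted by Benjamini-Hochberg, 0 of 8 subunits passed, where 5.18% of all tested genes did, 4.17% higher and 1.01% lower. The adjusted p-value alone gave the same 0 of 8 and the same 5.18%. Before adjustment, 2 of 8 subunits, *CCT8* and *TCP1*, had a p-value under 0.05, as did 23.3% of all tested genes. DESeq2, the program that the study itself used, called 1 subunit, *CCT8*, and 1272 of 14082 tested genes. With limma-voom, 0 subunits and 634 of 14391 tested genes were called. In RNA from whole pools, a different level per cell and a different share of cells that carry the mRNA cannot be told apart.

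Read against the other genes, the family did not stand out in count. All knockout pools lay above both control pools for 2 of 8 subunits, *CCT8* and *CCT7*, and for 22.2% of all tested genes. They lay below both for 1 of 8, *TCP1*, and for 19.2% of all tested genes. The pools overlapped for the other 5. The median log2-fold change was 0.17 over the 8 subunits and −0.03 over all tested genes. Without the sgMTSS1_1 pool, both medians were at −0.06.

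*CCT8*, which encodes the theta subunit, had the largest difference. Control pools 1 and 2 had 484 and 295 CPM. The knockout pools had 1122 CPM (sgMTSS1_1), 697 CPM (sgMTSS1_2), and 876 CPM (sgMTSS1_3). Group means were 389 ± 134 CPM (SD, n = 2) and 898 ± 213 CPM (SD, n = 3). The highest control pool stood 1.64-fold above the other, and the lowest knockout pool stood above both. The log2-fold change was 1.21 (standard error 0.38, 95% interval 0.35 to 2.06, edgeR adjusted p = 0.0977), which is 2.31-fold. This value was 1.18 with all libraries thinned to the smallest total. It was past both thresholds in DESeq2 (log2-fold change 1.24, adjusted p = 0.0127) and, in edgeR, without control pool 1 (1.62, adjusted p = 0.0402) or without a filter on low counts (1.35, adjusted p = 0.0384). It was 0.92 (adjusted p = 0.178) without control pool 2, 1.01 (adjusted p = 0.226) without the sgMTSS1_1 pool, and 1.03 (adjusted p = 0.136) with scaling by library size alone.

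*TCP1*, which encodes the alpha subunit, differed in the other direction. Control pools 1 and 2 had 134 and 166 CPM, as opposed to 112, 85.9, and 73.6 CPM in the 3 knockout pools. The means were 150 ± 23.2 CPM (SD, n = 2) and 90.4 ± 19.5 CPM (SD, n = 3), and no knockout pool reached the lower control pool. The log2-fold change was −0.73 (standard error 0.30, 95% interval −1.40 to −0.05, edgeR adjusted p = 0.184). It stayed negative under all 15 alternatives, between −0.92 and −0.53, and did not pass in any. Adjusted p-values ranged from 0.121 to 0.528.

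The promoters of *CCT8* and *TCP1* are shown because these subunits had the largest differences, in opposite directions. The sequences are RefSeq's for GRCh38.p14 and cover 250 bases before and 50 after the start of transcription. They are given 5′ to 3′ on the gene's strand. Capitals mark matches to CCAAT, to the GC box GGGCGG, or to the heat shock element GAANNTTC, searched on both strands.
CCT8 promoter, chr21:29073599-29073898, minus strand: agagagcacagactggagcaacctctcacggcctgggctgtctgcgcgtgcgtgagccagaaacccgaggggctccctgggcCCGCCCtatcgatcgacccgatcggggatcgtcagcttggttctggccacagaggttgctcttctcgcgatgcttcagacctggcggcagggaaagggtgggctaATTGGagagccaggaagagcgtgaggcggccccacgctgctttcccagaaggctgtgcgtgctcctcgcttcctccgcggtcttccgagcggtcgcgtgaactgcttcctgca
TCP1 promoter, chr6:159789553-159789852, minus strand: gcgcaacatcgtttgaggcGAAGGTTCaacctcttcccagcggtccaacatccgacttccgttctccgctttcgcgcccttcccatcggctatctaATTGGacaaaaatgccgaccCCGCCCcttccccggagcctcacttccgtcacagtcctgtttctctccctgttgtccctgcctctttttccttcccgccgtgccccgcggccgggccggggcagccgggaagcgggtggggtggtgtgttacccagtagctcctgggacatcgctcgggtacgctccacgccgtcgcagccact

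Both promoters hold 1 CCAAT and 1 GC box, and that of *TCP1* also holds a heat shock element. Windows were found for 7 of the 8 subunits, 9 windows in all, since *CCT2* and *CCT4* have a pair each. The pair of *CCT4* shares most of its bases, so the 9 are not all separate sequences. The windows of *CCT3*, *CCT5*, and *CCT7* and 1 of *CCT2* lie within the GENCODE bounds of their genes. CCAAT was present in 4 of the 9 windows (of *CCT2*, *CCT3*, *CCT8*, and *TCP1*) and in 34.6% of all 35116 promoter windows. The GC box was present in 6 of the 9, which belong to these 4 genes and *CCT7*, and in 45.0% of all windows. The heat shock element was present in 2 of the 9 (of *CCT2* and *TCP1*) and in 6.77% of all windows. An ETS motif CCGGAAG was found in 1 of the 9, of *CCT2* (10.3% of all windows), and no member's window held the CArG box, the E-box CACGTG, or the cAMP response element TGACGTCA. GAANNTTC can begin within CCGGAAG, whose last letters are GAAG, and matches describe letters and not binding.

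*CCT7*, which encodes the eta subunit, was at 301 and 442 CPM in the control pools and at 510, 518, and 535 CPM in the knockout pools. The knockout pools lay close together, with a mean of 521 ± 13.0 CPM (SD, n = 3), while the control pools had a mean of 371 ± 99.6 CPM (SD, n = 2). The log2-fold change was 0.49 (standard error 0.32, edgeR adjusted p = 0.394). Its 95% interval, −0.22 to 1.20, includes both no change and a 2.30-fold higher level.

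*CCT2* encodes the beta subunit. Its level was 266 and 164 CPM in the control and 397, 216, and 240 CPM in the knockout pools, with the sgMTSS1_1 pool far above the other 4. The log2-fold change of 0.40 (95% interval −0.44 to 1.25, edgeR adjusted p = 0.566) went to 0.07 when that pool was left out.

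*CCT4*, which encodes the delta subunit, was measured least well. It had 190 and 78 counts in the control libraries and 502, 238, and 223 counts in the knockout libraries. These correspond to 59.4 and 23.2 CPM in control and 65.1, 43.0, and 38.8 CPM in knockout pools. The control pools differed 2.56-fold, more than for any other subunit, and enclosed 2 of the 3 knockout values. The log2-fold change was 0.25 (95% interval −0.71 to 1.20, edgeR adjusted p = 0.774), and it was 1.09 without control pool 1 and −0.25 without control pool 2.

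For the 3 remaining subunits, the values of both groups were interleaved. *CCT5*, which encodes the epsilon subunit, was at 225 and 273 CPM in the control and 328, 235, and 233 CPM in the knockout pools. *CCT3*, which encodes the gamma subunit, was at 563 and 444 CPM in the control and 547, 421, and 417 CPM in the knockout pools. *CCT6A*, which encodes the zeta subunit, was at 439 and 595 CPM in the control and 579, 449, and 435 CPM in the knockout pools. The log2-fold changes were 0.09 (95% interval −0.60 to 0.79), −0.13 (−0.83 to 0.58), and −0.09 (−0.80 to 0.63), with adjusted p-values of 0.890, 0.851, and 0.905 from edgeR's quasi-likelihood test. These intervals allow for differences of up to 1.73-fold, 1.49-fold, and 1.55-fold above control. The sign of each changed under at least 1 alternative, library size scaling among them for *CCT5*, where the median of all tested genes moved from −0.03 to −0.17.

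**Figure D2:**
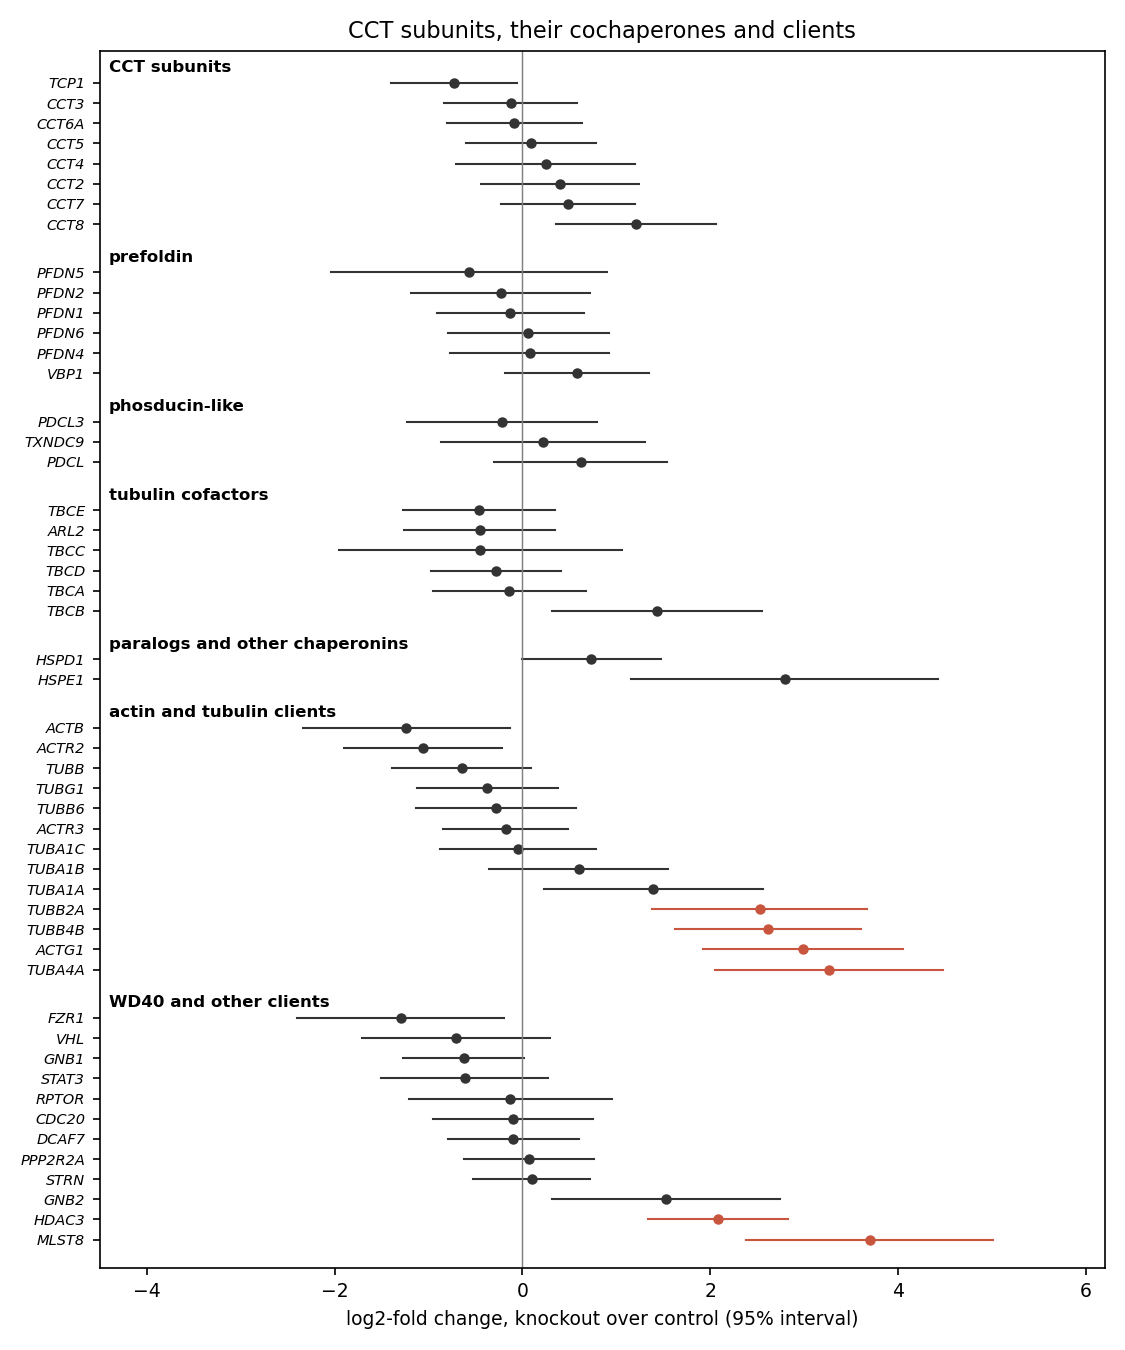
log2-fold change of knockout over control pools for the 8 CCT subunits and for fixed lists of cochaperones, tubulin cofactors, other chaperonins, and clients. Points are estimates and lines 95% intervals from edgeR's quasi-likelihood test. Red marks genes past both thresholds, of which there were 4 among actins and tubulins, 2 among the other clients (*MLST8* rests on 2 counts in each control library), and 0 among the subunits.

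Because the 8 proteins are used in equal numbers, the make-up of their mRNA pool was also compared. A share within a library does not depend on depth or scaling. *CCT8* made up 19.6% (95% Wilson interval 18.7 to 20.5) and 12.3% (11.6 to 13.0) of the summed subunit counts in control pools 1 and 2. In the 3 knockout pools it made up 30.7% (30.1 to 31.2), 26.2% (25.5 to 26.9), and 30.7% (30.05 to 31.5). It ranked 2 and 4 among the 8 in the control libraries and 1 in every knockout library. These intervals cover counting error at most, not the spread between pools. They treat reads as independent molecules, which cannot be assumed without molecular identifiers, so they may be too narrow. The gap between the control pools was wider than they are.

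For 4 other subunits, the share in each knockout pool lay below that in either control pool. *TCP1* made up 5.40% and 6.92% of the control sums against 3.06%, 3.22%, and 2.58% of the knockout sums. For *CCT3*, the shares were 22.8% and 18.5% against 14.9%, 15.8%, and 14.6%. *CCT6A* and *CCT5* lay lower as well, with means of 21.3% against 15.98% and of 10.2% against 8.66%. Shares of *CCT2*, *CCT4*, and *CCT7* overlapped. Shares sum to 100%, so a larger share of *CCT8* lowers the others. In CPM, of the 4 with lower shares, *TCP1* alone lay below both control pools in every knockout pool. The pools overlapped in CPM for *CCT3*, *CCT5*, and *CCT6A*. With 2 pools against 3, an exact permutation test over samples cannot go below p = 0.1, and none was run on the shares.

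**Figure D3:**
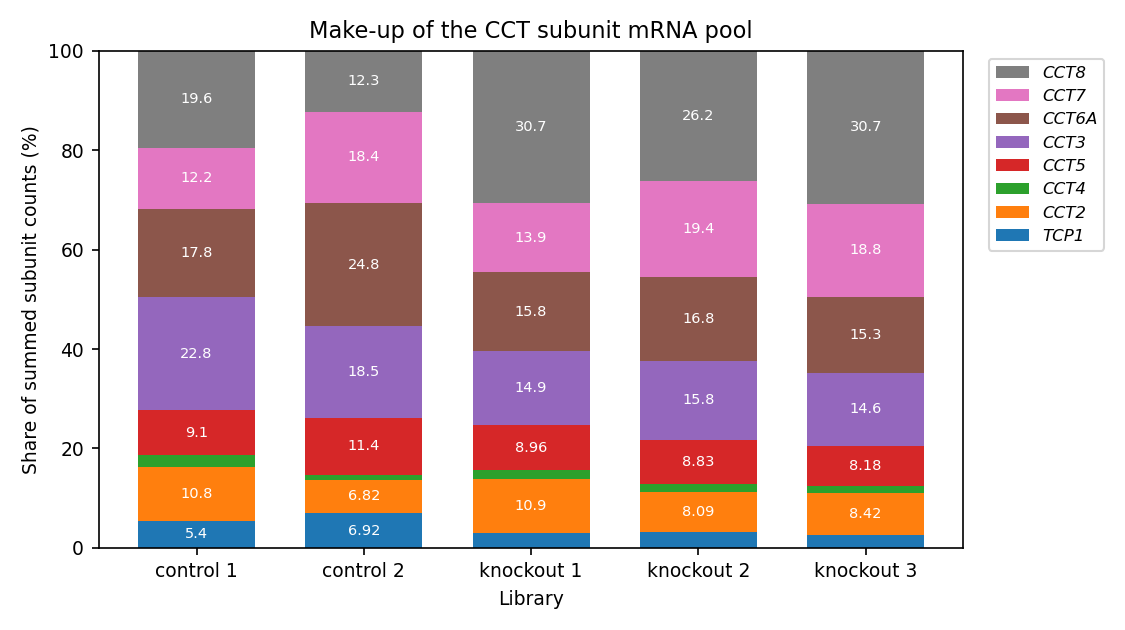
Share of each subunit in the summed counts of the 8 CCT genes, in percent, with 1 bar per library. The top segment, *CCT8*, spans 12.3% and 19.6% in the control and 26.2% to 30.7% in the knockout libraries.

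The ratio of *CCT8* to *TCP1* counts, a pair picked after its values were seen, was 3.63 and 1.77 in the control as opposed to 10.03, 8.11, and 11.9 in the knockout libraries. The means were 2.70 ± 1.31 (SD, n = 2) and 10.02 ± 1.89 (SD, n = 3). Summed over all 8 subunits, control pools had 2471 and 2402 CPM, while knockout pools had 3660, 2665, and 2848 CPM. All knockout sums lay above both control sums on this scale. As a share of the deposited library total, with no TMM factors, the 8 subunits took 0.277% and 0.236% in control and 0.319%, 0.271%, and 0.282% in knockout libraries, and the groups overlapped. Without *CCT8*, the sums were 1987 and 2108 CPM in control and 2538, 1968, and 1972 CPM in knockout pools, and the groups overlapped. The summed level of the other 7 subunits was thus above the control pools in the sgMTSS1_1 pool alone.

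Prefoldin genes were measured as the partners that hand clients to CCT. None of 6 passed the thresholds, which 5.18% of all tested genes did, and none reached an unadjusted p-value under 0.05, which 23.3% of all tested genes did. The pools overlapped for all 6, while for 22.2% of all tested genes the knockout pools lay above, and for 19.2% below, both control pools. The median log2-fold change was −0.03. *VBP1*, an alpha-type prefoldin subunit, had the highest value at 0.58 (edgeR adjusted p = 0.340), followed by *PFDN4* (0.08), *PFDN6* (0.06), *PFDN1* (−0.13), and *PFDN2* (−0.23). *PFDN5* had the lowest value at −0.57, but its control pools were at 260 and 2031 CPM, a wider gap than that to any of the knockout pools at 956, 661, and 695 CPM.

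The phosducin-like genes *PDCL*, *PDCL3*, and *TXNDC9* had log2-fold changes of 0.62, −0.21, and 0.22, with adjusted p-values of 0.405, 0.820, and 0.825 from edgeR's quasi-likelihood test. The pools overlapped for all 3, while knockout pools lay above both control pools for 22.2% of all tested genes and below both for 19.2%. Among 6 tubulin cofactors, which take tubulin on from CCT and assemble its dimer, 0 passed, where 5.18% of all tested genes did. An unadjusted p-value under 0.05 was found for 1 of the 6 and for 23.3% of all tested genes. *TBCB*, which binds alpha-tubulin, was the highest at 1.43 (adjusted p = 0.126). Its level was 94.4 and 24.7 CPM in control and 190, 146, and 147 CPM in knockout pools. The lowest was *TBCE*, at −0.46 (adjusted p = 0.479).

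The mitochondrial chaperonin, a relative of CCT that folds proteins of the mitochondrial matrix, consists of HSPD1 and its lid HSPE1. *HSPD1* was at 391 and 551 CPM in the control and at 861, 749, and 738 CPM in the knockout pools, and *HSPE1* at 54.1 and 9.54 CPM against 372, 123, and 165 CPM. All knockout pools lay above the control pools for both genes, as they did for 22.2% of all tested genes. Neither passed, with log2-fold changes of 0.73 and 2.79 and adjusted p-values of 0.216 and 0.0575 from edgeR's quasi-likelihood test. *CCT6B*, a paralog of *CCT6A* used mainly in testis, had at most 8 counts in a library and was not tested.

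Of 14 actin, actin-related, and tubulin genes, 13 were tested, and 4 rose while 0 fell at both thresholds, where 4.17% of all tested genes rose and 1.01% fell. The median over the 13 was −0.04. *ACTG1*, which encodes cytoplasmic gamma-actin, was at 303 and 125 CPM in the control and 1639, 1479, and 1963 CPM in the knockout pools (log2-fold change 2.99, edgeR adjusted p = 0.0131). *TUBA4A* (3.26), *TUBB4B* (2.61), and *TUBB2A* (2.53) rose as well, with adjusted p-values of 0.0146, 0.0155, and 0.0257. *ACTB*, which encodes cytoplasmic beta-actin, was at 719 and 2188 CPM in the control and 394, 800, and 657 CPM in the knockout pools (log2-fold change −1.24, adjusted p = 0.169). *TUBB*, the beta-tubulin gene with the highest level here, had a log2-fold change of −0.65 (adjusted p = 0.277). Actin and tubulin genes have near-identical copies, and reads that mapped to several places had been removed, so their counts are uncertain.

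Of 12 other clients, 2 rose and 0 fell, beside the same 4.17% and 1.01% of all tested genes. *HDAC3*, which encodes a histone deacetylase, was at 32.5 and 50.1 CPM in the control and 178, 156, and 192 CPM in the knockout pools (log2-fold change 2.08, edgeR adjusted p = 0.0131). *MLST8*, a WD40 subunit shared by both mTOR complexes, had 2 counts in each control library and was at 8.69, 6.86, and 9.05 CPM in the knockout pools (adjusted p = 0.0131). It met the filter on low counts through the knockout libraries alone, which are also the deeper ones. Its p-value and its place among the 2 therefore carry no weight. Among those that did not pass, *GNB2*, a G protein beta chain, was highest at 1.53 (adjusted p = 0.131), and *FZR1*, an activator of the anaphase-promoting complex, lowest at −1.30 (adjusted p = 0.154).

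Near-identical copies could also affect the subunits. The last 500 bases of each subunit's canonical transcript in GENCODE release 44 were compared with the GRCh38 genome. Only *CCT8* had windows of 50 bases, the read length, with an exact copy elsewhere: 64 of 451 windows, or 14.2%. The copy lies at *CCT8P1* on chromosome 1 (147203124 to 147203637) and is 92.8% identical over 514 aligned bases. Reads from such windows were removed as not uniquely mapped, which lowers the *CCT8* count by an unknown amount in every library. *CCT8P1* itself was at 15.01 and 5.96 CPM in control pools and at 27.0, 11.0, and 15.3 CPM in knockout pools, which overlapped (log2-fold change 0.77, edgeR adjusted p = 0.408). Its counts over all libraries were 2.12% of those of *CCT8*. The other 7 subunits had no exact copy of a window in this stretch, but transcripts that end elsewhere were not examined.

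Of the 9 pseudogenes named after a subunit and present in the table, 6 were tested. *CCT5P2* was at 5.32 and 4.47 CPM in control pools, as opposed to 13.5, 16.2, and 13.7 CPM in knockout pools, and rose by 1.56 on the log2 scale (edgeR adjusted p = 0.0469), while *CCT5* was at 0.09. *TCP1P1* had a log2-fold change of −0.73, the value of *TCP1*, with an adjusted p of 0.301. Its 279 counts over all libraries amount to 10.2% of those of *TCP1*. *TCP1P3*, with 110 counts over all libraries, went the other way at 0.28 (edgeR adjusted p = 0.812). *CCT6P1* and *CCT6P2*, with 34 and 72 counts over all libraries, were at −0.96 and −0.21 (edgeR adjusted p = 0.576 and 0.901). In the last 500 bases, windows of *TCP1* and *CCT5* had no exact copy elsewhere, as given above. Beyond that comparison, whether reads were exchanged between such copies and their parents was not tested.

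The subunit genes are spread over 7 chromosomes of GRCh38. *TCP1* (ENSG00000120438) lies on the minus strand of chromosome 6 from 159778498 to 159789703, and its last exon overlaps exons of *ACAT2* on the opposite strand over up to 454 bases. *ACAT2* had between 30 and 64 counts in a library, far fewer than *TCP1*. *CCT8* (ENSG00000156261) lies on the minus strand of chromosome 21 from 29055805 to 29073797, and no annotated gene overlaps its last exon. *CCT4* and *CCT7* are both on chromosome 2, from 61868085 to 61888671 and from 73233420 to 73253021. The last exons of *CCT4* and *CCT5* are overlapped by a lncRNA on the opposite strand, of which that at *CCT5* had at most 7 counts in a library. Whether strand was used in counting is not known, so reads from such overlaps cannot be told apart.

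The average profile of the 8 subunits over the 5 libraries was nearly flat apart from the sgMTSS1_1 pool. As the geometric mean of the 8 levels, it was 254 and 223 CPM in the control and 339, 245, and 247 CPM in the knockout pools. The 5 tested genes nearest to it in centred log2 CPM were *UTP15*, *PPIL4*, *UTP11*, *SLC25A17*, and *DDX5*, with root mean square distances from 0.04 to 0.05 over the 5 libraries. *UTP15* and *UTP11* encode proteins of small ribosomal subunit assembly. *UTP15* was at 38.8 and 33.1 CPM in control and 48.3, 35.9, and 35.7 CPM in knockout pools. None of the 5 passed the thresholds. Among the subunits themselves, *CCT5* (0.16) and *CCT3* (0.17) lay closest to the average profile by the same measure, and *TCP1* (0.49) and *CCT8* (0.54) farthest.

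**Figure D4:**
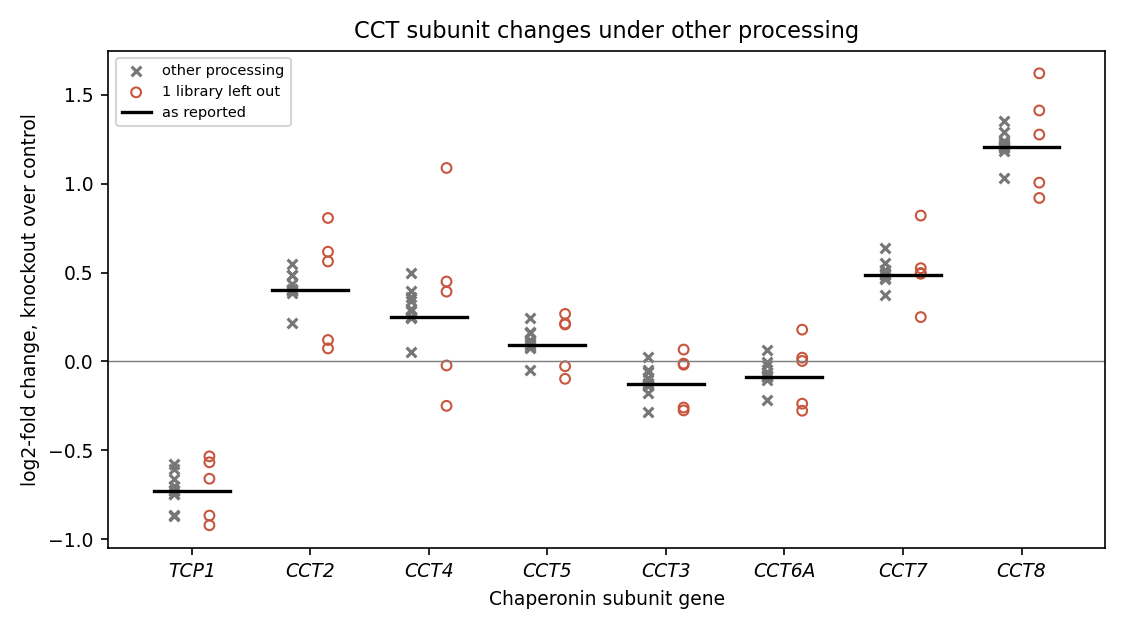
log2-fold change of each CCT subunit as reported (black line), under 10 other ways of processing (grey crosses), and with each of the 5 libraries left out in turn (open circles). *CCT8* stays between 0.92 and 1.62 and *TCP1* between −0.92 and −0.53, while *CCT3*, *CCT4*, *CCT5*, and *CCT6A* cross 0.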

How the data were processed

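Total RNA was isolated from pooled single-cell TF-1 clones, and libraries were prepared with the QuantSeq 3′ mRNA-Seq FWD kit. The authors trimmed adapters, aligned reads to GRCh38 with HISAT2 2.1.0 per the labels, removed reads without a unique position with SAMtools 1.10, and deposited raw counts per Ensembl gene. Counting program, annotation release, strand, and duplicate handling are not given in the sources used here. The study set aside 1 further pool in each group for its distance from the group's centre, and these were not analysed here.

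Here, counts were tested with edgeR 4.0.16 in R 4.3.3 (filterByExpr at a minimum count of 10, TMM, a model of the condition alone over all 5 libraries, quasi-likelihood test, Benjamini-Hochberg over 14391 genes), which was tested on simulated data first. CPM are deposited counts over the TMM-scaled totals of the 14391 tested genes. A level of 3 counts corresponds to 0.389 to 0.938 CPM. DESeq2 1.42.0, limma-voom 3.58.1, other factors, filters, and depths, a replicate block, and left-out libraries were alternatives. Symbols and positions come from GENCODE release 44, promoters from RefSeq, and copies from BLAST 2.17.0 searches of the main chromosomes. The subunits and all lists were chosen with earlier results of these data known. Named genes are the subunits, *MTSS1*, all prefoldin and phosducin-like genes, the tested pseudogenes of subunits, and the 5 genes nearest to the average profile. In other lists, they are the genes that passed and the largest rise and fall. Of the genes that overlap a subunit, *ACAT2* alone is named. *TUBB*, *GNB2*, and *KLF1* were added after their values were seen.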

Additional observations from a re-analysis of the deposited data

How the results depend on the processing

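The number of subunits past both thresholds was 1 in place of 0 with DESeq2 and with no filter on low counts, and ranged from 0 to 1 with a library left out; the counts with an adjusted p-value under 0.05 alone were the same, 1, 1, and 0 to 1. In each case the subunit was *CCT8*, and the library was control pool 1, without which the control group is a single pool. Of all tested genes, 1272 of 14082 passed both thresholds with DESeq2 and 1374 of 27328 with no filter. In the main test 745 of 14391 passed, and 111 of 13358 without the sgMTSS1_1 pool. The median over the subunits stayed between −0.06 and 0.33. Signs changed for 4 subunits. With no filter on low counts, *CCT3* was at 0.023 and *CCT6A* at 0.065, where the median of all genes was 0.11. With library size alone, *CCT5* was at −0.049. With each library left out in turn, *CCT3* ranged from −0.27 to 0.067, *CCT4* from −0.25 to 1.09, *CCT5* from −0.10 to 0.27, and *CCT6A* from −0.28 to 0.18. *CCT2*, *CCT7*, *CCT8*, and *TCP1* kept their direction under all 15 alternatives; the adjusted p-value of *CCT8* ranged from 0.0127 to 0.237. The cause of these changes was not tested. The labels use numbers 1 and 2 in both groups without saying whether a number stands for anything shared. Deviations from the group means correlated across genes at 0.20 for number 1 and 0.11 for number 2. With the number as a replicate block, *CCT8* was at 1.23 (adjusted p = 0.114, edgeR) and 0 subunits passed. *CCT4* had the lowest count of any subunit, 78 in control pool 2. Its log2-fold change was 0.29 with all libraries thinned to the smallest total, as opposed to 0.25 in the main test.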
